A study of Mus musculus with 3 samples.

Results

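GABA subcluster 9 is one of 22 subclusters into which the study's authors divided the GABA neurons of mouse lateral septum, and its members here are the 50 genes that the authors' table of GABA subcluster markers lists for it. That table names 705 different genes, and the 3 deposited tables together name 1039. The nuclei came from naïve adult male C57BL/6J littermates aged 3 months, with no treatment and no transgene. Punches of 500 µm diameter were taken from 200 µm sections of 8 mice, and after fluorescent sorting the pooled nuclei were split over 3 droplet libraries (10x Genomics). The labels give each library a batch entry of its own, and the deposited tables do not separate them. The labels state that medial septum, triangular septum, prefrontal cortex or striatum can be partly included. All libraries form 1 group, so what can be compared is one cluster of nuclei with another.

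The lateral septum is a forebrain nucleus made up largely of GABAergic projection neurons, which receive hippocampal input and reach the hypothalamus. Foxp2, the marker in the working name of subcluster 9, encodes a forkhead transcription factor that acts mainly as a repressor. It is best known for its part in human speech and in vocal learning of songbirds, and in the mouse forebrain it is also made in striatal medium spiny neurons and in deep cortical layers.

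Each row of the authors' deposited table holds an average log2 fold change of the subcluster against all other GABA nuclei. It also gives detection, meaning the share of nuclei with any read of the gene, inside the subcluster and outside it. The subclusters were formed from these same nuclei, so a subcluster set against the rest is a description and no test is given. The number of nuclei, the depth per nucleus and values per library were not among the data used here, so no value has a replicate error or a counting interval. Each subcluster has 50 rows sorted by p-value, and no row falls under a log2 fold change of 1. How the 50 were picked is not stated, and a gene that is not listed may still differ in that subcluster.

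Foxp2 is one of 5 genes with a p-value of 0 in the list of subcluster 9, with Nell1, Ndst4, Sgcd and Ntm, in the authors' deposited table, so p-values do not order them. It stood eighth by log2 fold change. The name was taken from this same list, so its presence there is no separate check of the name. Foxp2 was detected in 79.5% of the nuclei of subcluster 9 against 30.7% of all other GABA nuclei, a log2 fold change of 2.28 in the authors' deposited table. Its difference in detection, 48.8 percentage points, was the widest among the 50 genes. Subcluster 9 was not the one with the most frequent Foxp2. In the authors' deposited table, detection was 95.9% in subcluster 15 (log2 fold change 2.93) and 92.9% in subcluster 21 (2.98). No other GABA subcluster lists it.

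Shares of nuclei were recovered from the detection percentages, because the detection of a gene over all GABA nuclei must come out equal from every subcluster that lists it. Subcluster 9 held 4.96% of the GABA nuclei, and the rounding of the deposited values allows 4.77% to 5.17%. The same equations gave 2.15% for subcluster 15 and 0.351% for subcluster 21. Foxp2 was then detected in 33.1% of all GABA nuclei. Subcluster 9 held 11.9% of those Foxp2-positive nuclei (11.5% to 12.4% from rounding), subcluster 15 held 6.21% and subcluster 21 held 0.986%. The remaining 80.9% lay in the 19 subclusters that do not list Foxp2, where its mean detection was 28.95%. How much of that low detection comes from free RNA was not tested. In the broad table, Foxp2 was listed for cluster 3 (57.8% of its nuclei), cluster 19 (91.1%) and cluster 24 (92.5%) in the authors' deposited table. Foxp2 spans positions 14901349 to 15441977 of chromosome 6, plus strand (GRCm38, GENCODE M21).

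**Figure D1:**
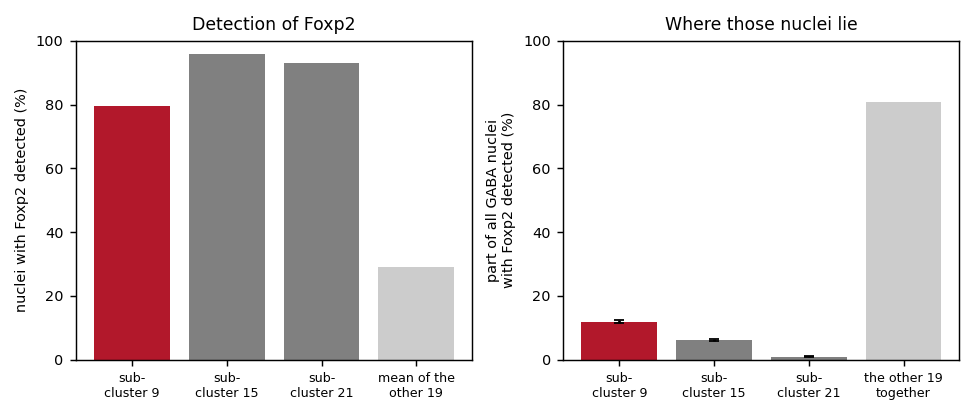
Left, percentage of nuclei with Foxp2 detected in each GABA subcluster that lists it and the mean over the other 19; right, part of all Foxp2-positive GABA nuclei in each, in percent, with bars for the range that rounding allows (none was computed for the other 19). Detection in subcluster 9 (79.5%) lies below that in subclusters 15 and 21, and 80.9% of the positive nuclei lie outside the 3.

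Likeness to Foxp2 was taken as the number of GABA subclusters that list both genes over the number that list either. Olfm3, which encodes a secreted olfactomedin-domain protein, had the same 3 listing subclusters as Foxp2, a likeness of 1. Nell1, which encodes a secreted glycoprotein with EGF-like repeats, was next with 0.75, because subcluster 14 lists it too. Cntn3, Lncenc1, March3, Ntm, Pde4d, Samd5 and Sash1 each reached 0.667, and the last 3 of these are not listed for subcluster 9. These values rest on 22 subclusters of the same nuclei.

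Forkhead proteins bind short AT-rich words, and promoter windows of the members were searched for 5 such words on both strands. RefSeq windows on GRCm38.p6, running from 250 bases before to 50 bases after a gene's start, were matched for 34 of the 50 members by symbol or older symbol, in 46 windows. TGTTTAC was in 0 of the 46 windows, beside 3.65% of all 32851 windows in the table. TGTTTAT was in 3 (6.52%, beside 4.60% of all) and TATTTAT in 4 (8.70%, beside 5.60%). The shorter TGTTT, which lies within the first 2 of these, was in 23 (50%, beside 50.5%), and AAATA, which lies within the reverse complement of TATTTAT, was in 15 (32.6%, beside 39.6%). These shares are close to those of all windows or rest on a few windows, and nothing is read from them. The windows below are those of the 4 members with TATTTAT. That word was chosen for display after the matches of all 5 had been seen, so the windows illustrate the search and are no evidence of binding. Letters run 5′ to 3′ on the gene's strand, and capitals mark TATTTAT or its reverse complement.
Slit2 (chr5:47982905-47983204, plus strand) holds the word after the gene's start, and Gabrb2 (chr11:42420190-42420489, plus strand), Gfra1 (chr19:58455349-58455648, minus strand) and Gdpd2 (chrX:100729597-100729896, plus strand) hold its reverse complement before it. In Gfra1 the match overlaps the reverse complement of TGTTTAT.
Slit2: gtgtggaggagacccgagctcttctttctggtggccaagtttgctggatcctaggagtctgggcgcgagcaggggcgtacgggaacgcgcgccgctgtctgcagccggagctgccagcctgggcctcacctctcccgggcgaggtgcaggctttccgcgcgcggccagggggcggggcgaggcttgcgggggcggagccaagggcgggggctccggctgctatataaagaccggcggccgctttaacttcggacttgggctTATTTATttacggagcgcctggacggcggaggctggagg
Gabrb2: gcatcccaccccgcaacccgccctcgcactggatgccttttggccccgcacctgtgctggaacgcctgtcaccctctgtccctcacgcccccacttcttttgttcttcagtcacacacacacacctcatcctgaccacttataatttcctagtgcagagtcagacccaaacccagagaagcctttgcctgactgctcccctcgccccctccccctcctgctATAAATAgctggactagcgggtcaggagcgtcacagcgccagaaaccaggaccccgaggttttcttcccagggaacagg
Gfra1: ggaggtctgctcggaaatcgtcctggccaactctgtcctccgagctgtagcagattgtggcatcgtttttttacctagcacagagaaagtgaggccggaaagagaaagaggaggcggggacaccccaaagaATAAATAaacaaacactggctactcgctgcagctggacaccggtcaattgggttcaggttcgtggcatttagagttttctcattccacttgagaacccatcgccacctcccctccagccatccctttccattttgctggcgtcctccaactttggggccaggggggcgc
Gdpd2: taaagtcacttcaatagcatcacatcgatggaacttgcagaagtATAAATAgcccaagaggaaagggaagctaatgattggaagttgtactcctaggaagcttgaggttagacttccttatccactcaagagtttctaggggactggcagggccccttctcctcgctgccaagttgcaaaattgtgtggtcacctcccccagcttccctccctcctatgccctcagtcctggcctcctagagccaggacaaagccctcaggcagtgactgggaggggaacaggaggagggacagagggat

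Across the 50 members, detection inside subcluster 9 ran from 7.2% (Zim1) to 98.3% (Ntm), with a median of 40%, in the authors' deposited table. Outside it ran from 1.5% to 66.9%, with a median of 17.3%. Of the members, 39 were detected in at least 25% of the nuclei inside, 17 in at least 50% and 8 in at least 75%. The median log2 fold change was 1.53. Medians of the other 21 subclusters ran from 1.27 to 3.93, and the median of these was 1.51, so subcluster 9 ranked near the middle. Its highest log2 fold change, 3.81 for Ndst4, compares with highest values of 2.51 to 9.85 elsewhere, whose median was 3.85.

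**Figure D2:**
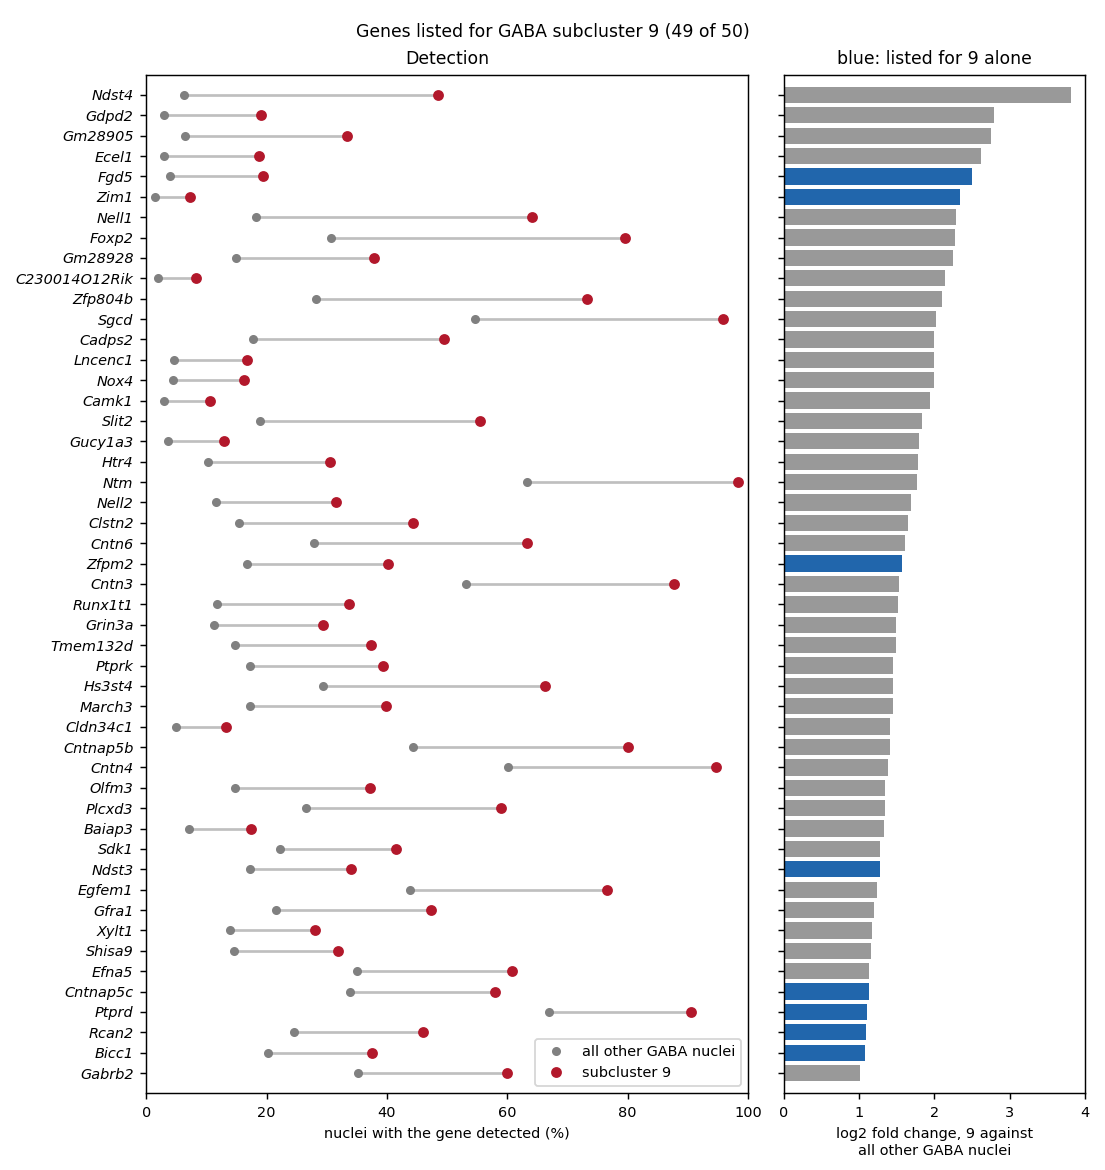
Left, percentage of nuclei with each of 49 of the 50 genes detected inside subcluster 9 (red) and in all other GABA nuclei (grey). Right, log2 fold change, with the genes listed for no other GABA subcluster in blue. Ndst4 has the highest log2 fold change (3.81), while Foxp2 has the widest gap in detection.

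Beside Foxp2, the list of transcription factors and cofactors gave Runx1t1 and Zfpm2, and the zinc-finger genes Zfp804b and Zim1 are outside that list. Zfp804b, a zinc-finger gene, was detected in 73.3% of the nuclei inside against 28.2% outside (log2 fold change 2.11) in the authors' deposited table. It was listed for 5 other GABA subclusters, and its detection there reached 100% in subcluster 21. Zfpm2, which encodes a cofactor of GATA factors, was detected in 40.2% against 16.8% (1.57) in the authors' deposited table. Among GABA subclusters, Zfpm2 was listed for subcluster 9 alone. In the broad table it was detected in 89.3% of cluster 13 against 22.1% outside (3.22), in the authors' deposited table. Runx1t1, a corepressor gene, had 33.7% against 11.8% (1.52) in the authors' deposited table and was listed for 6 subclusters in all. Zim1, an imprinted zinc-finger gene, was also listed for subcluster 9 alone, from detection in 7.2% against 1.5% (2.35) in the authors' deposited table. That list has 81 genes, of which 37 were in the GABA table and 3 (8.11%: Foxp2, Runx1t1 and Zfpm2) were listed for subcluster 9, beside 7.09% of all genes of the table.

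Adhesion genes made up the largest group. Of 67 synaptic adhesion genes in a list, 31 were in the GABA table and 10 were listed for subcluster 9, which is 32.3% of the 31 beside 7.09% of all genes of the table. Like the other lists, this one was chosen with earlier results of these data known, so the share is no test. Subcluster 3 listed 2 of the 31, Cntn5 and Il1rapl2, which is near the 7.09% of all genes of the table listed for it. The 10 had a median log2 fold change of 1.43 and were common in other GABA nuclei as well, with a median detection of 71.7% inside and 39.1% outside in the authors' deposited table. Contactins, immunoglobulin-domain proteins anchored in the membrane by a lipid, gave 3 of the 10. Cntn4 was detected in 94.7% against 60.1% (log2 fold change 1.38), Cntn3 in 87.7% against 53.2% (1.54) and Cntn6 in 63.2% against 27.8% (1.61) in the authors' deposited table. The neurexin-like genes Cntnap5b (80.1% against 44.3%) and Cntnap5c (58% against 33.8%) had values of 1.41 and 1.13 in the authors' deposited table.

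Ntm, which encodes the adhesion molecule neurotrimin, was the most frequent member, at 98.3% against 63.3% (1.77) in the authors' deposited table. Ptprd, a receptor phosphatase gene of the presynaptic side, had the highest detection outside, at 66.9% against 90.6% inside (1.11) in the authors' deposited table. The remaining adhesion members were Ptprk (39.4% against 17.3%), the calsyntenin gene Clstn2 (44.3% against 15.4%) and the sidekick gene Sdk1 (41.5% against 22.3%) in the authors' deposited table. Among GABA subclusters, Ptprd and Cntnap5c were the adhesion members listed for subcluster 9 alone. Others had higher detection elsewhere in the authors' deposited table. Subcluster 21 had Cntn3 at 95.7%, Ntm at 98.6% and Clstn2 at 77.1%, and subcluster 12 had Sdk1 at 42.5%. Cntn4, Cntn6, Cntnap5b and Ptprk were listed elsewhere too but had their highest listed detection in subcluster 9. Cntn4 and Cntn6 are neighbours on chromosome 6, 814 kb apart in GENCODE M21.

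Ndst4 led the list by log2 fold change and Nell1 was among the leading genes, and both belong to a list of 60 extracellular matrix and proteoglycan genes. Of that list, 32 were in the GABA table and 4 (12.5%) were listed for subcluster 9, beside 7.09% of all genes of the table. Ndst4, which encodes an enzyme that removes acetyl groups from heparan sulphate and adds sulphate, was detected in 48.5% against 6.2% (3.81) in the authors' deposited table. Subcluster 9 held 29.0% of the GABA nuclei with Ndst4 detected, the highest such part among the 50 members. The other GABA subcluster to list Ndst4 was subcluster 12, with detection in 19.3% in the authors' deposited table. In the broad table Ndst4 was detected in 47.6% of cluster 21 against 9.0% outside (3.08), in the authors' deposited table. Ndst3, from the same enzyme family, had 34.1% against 17.3% (1.28) in the authors' deposited table. Among GABA subclusters, Ndst3 was listed for subcluster 9 alone. Hs3st4, which encodes a sulphotransferase acting later on the same chains, had 66.2% against 29.4% (1.45) in the authors' deposited table. Xylt1, which is outside the list and encodes the xylosyltransferase that starts such chains on core proteins, had 28% against 14% (1.17) in the authors' deposited table.

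Among genes of secreted or guidance proteins, Nell1 was detected in 64.1% of the nuclei inside against 18.2% outside (2.29) in the authors' deposited table. Its relative Nell2 had 31.5% against 11.6% (1.70) in the authors' deposited table. In the broad table Nell2 reached 86.8% in cluster 17, in the authors' deposited table. Slit2, which encodes the repulsive ligand of Robo receptors, had 55.4% against 18.9% (1.84) in the authors' deposited table, where subcluster 6 had a higher detection of 69.4%. The ephrin gene Efna5 had 60.7% against 35.1% (1.13) in the authors' deposited table. Slit2 and Efna5 were the 2 members out of 47 axon guidance genes in a list, of which 20 were in the GABA table, a share of 10% that is near the 7.09% of all its genes. Egfem1, for a protein with EGF-like repeats, had 76.6% against 43.8% (1.24), and Olfm3 had 37.2% against 14.8% (1.35), in the authors' deposited table.

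Transmitter and growth factor receptors were a smaller group. Htr4, the gene of a serotonin receptor that raises cyclic AMP, was detected in 30.5% against 10.2% (1.78) in the authors' deposited table. It was the 1 member out of 30 genes in a list of monoamine, acetylcholine and cannabinoid receptors, of which 12 were in the GABA table, a share of 8.33% that is near the 7.09% of all its genes. Gfra1, for the receptor that binds GDNF, had 47.4% against 21.6% (1.20) in the authors' deposited table. Of 47 glutamate and GABA receptor genes, counted with their auxiliary subunits, 19 were in the GABA table and 4 (21.1%) were listed for subcluster 9, beside 7.09% of all genes of the table. Among them were the GABA-A receptor subunit gene Gabrb2 (59.9% against 35.2%), the NMDA receptor subunit gene Grin3a (29.4% against 11.3%) and the AMPA receptor partner gene Shisa9 (31.8% against 14.6%) in the authors' deposited table. Subcluster 4 lists Gabrb2 and Grin3a too, at 62.5% and 36.1% of its nuclei in the authors' deposited table.

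The members left are enzymes, release proteins and membrane proteins, most of them in no list. Cadps2, which encodes a priming factor of dense-core vesicles, was detected in 49.4% against 17.8% (2.00), and Baiap3, which acts in the same release path, in 17.4% against 7.1% (1.33) in the authors' deposited table. Sgcd, for δ-sarcoglycan of the dystrophin complex, had 95.8% against 54.6% (2.02) in the authors' deposited table. Several members with high log2 fold changes were rare. Gdpd2, for a phosphodiesterase of glycerol phosphodiesters, had 19.1% against 3% (2.79), the membrane protease gene Ecel1 had 18.7% against 3% (2.62), and Fgd5, for an exchange factor of Cdc42, had 19.4% against 3.9% (2.50) in the authors' deposited table. Among GABA subclusters, Fgd5 was listed for subcluster 9 alone.

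Genes of second messenger signalling included Gucy1a3, a subunit of the nitric oxide receptor guanylate cyclase (13% against 3.7%), Camk1, a calmodulin-dependent kinase (10.6% against 3%), and Plcxd3, with a phospholipase C domain (59% against 26.6%), in the authors' deposited table. Nox4, for an NADPH oxidase, had 16.3% against 4.5%, and the calcineurin regulator gene Rcan2 had 46% against 24.6% in the authors' deposited table. March3, a ubiquitin ligase gene, had 39.8% against 17.3%, and Bicc1, an RNA-binding protein gene, had 37.5% against 20.3% in the authors' deposited table. Rcan2 and Bicc1 were the last of the 8 genes listed for subcluster 9 alone among GABA subclusters. Tmem132d (37.4% against 14.7%) and the claudin gene Cldn34c1 (13.2% against 4.9%) completed the protein-coding members in the authors' deposited table, of which there were 46.

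The 4 non-coding members are annotated as lincRNA genes. Gm28905 was detected in 33.3% against 6.5% (2.75) and Gm28928 in 37.8% against 14.9% (2.24) in the authors' deposited table. Subcluster 6 also lists both. In the broad table Gm28905 reached 61.3% in cluster 23 and Gm28928 reached 100% in cluster 13, in the authors' deposited table. Lncenc1 had 16.7% against 4.6% (2.00) and C230014O12Rik had 8.2% against 2% (2.15) in the authors' deposited table. All 50 members were located in GENCODE M21, with a median span of 282 kb and 15 members over 500 kb. The median over the 701 located genes of the GABA table was 154 kb.

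Few genes of subcluster 9 were listed for no other GABA subcluster. There were only 8 among its 50 genes, the lowest count of the 22 subclusters together with that of subcluster 14. The other 21 subclusters had up to 34 and a median of 22. Of the 42 genes listed elsewhere too, 16 had their highest listed detection in subcluster 9 and 26 had a higher one in another subcluster. Subcluster 9 shared at least 1 gene with 17 of the other 21. Its largest overlaps were with subcluster 15 (10 genes, 20% of each list) and with subclusters 3, 4, 12 and 21 (9 genes each). The median over all 231 pairs of subclusters was 2 genes and the highest was 15. The 8 genes are set apart among GABA nuclei only. All of them but Zim1 were listed for a broad cluster other than cluster 3. Broad cluster 7 had Ptprd in 100% and Ndst3 in 70.5% of its nuclei, and broad cluster 16 had Cntnap5c in 63%, in the authors' deposited table.

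**Figure D3:**
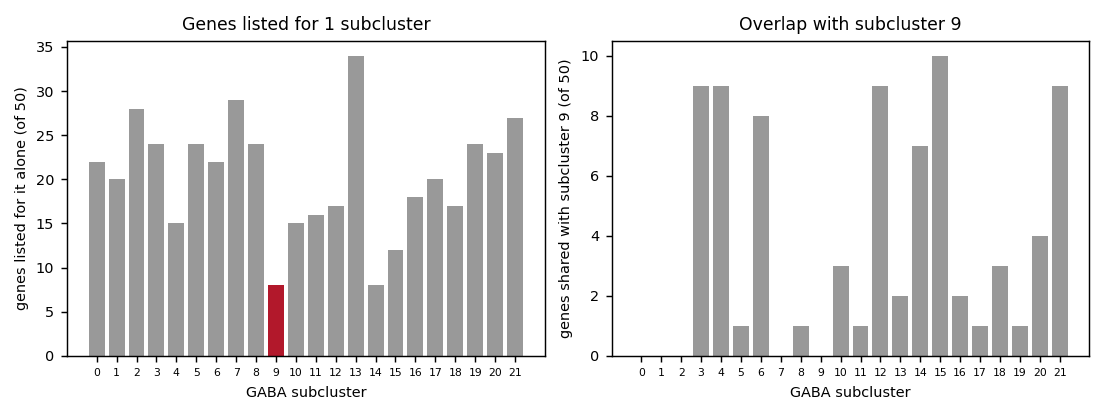
Left, number of the 50 listed genes that are listed for no other GABA subcluster, with subcluster 9 in red; right, number of genes each other GABA subcluster shares with subcluster 9. Subclusters 9 and 14 each have 8 genes listed for no other GABA subcluster, and subcluster 15 shares 10 with subcluster 9.

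**Figure D4:**
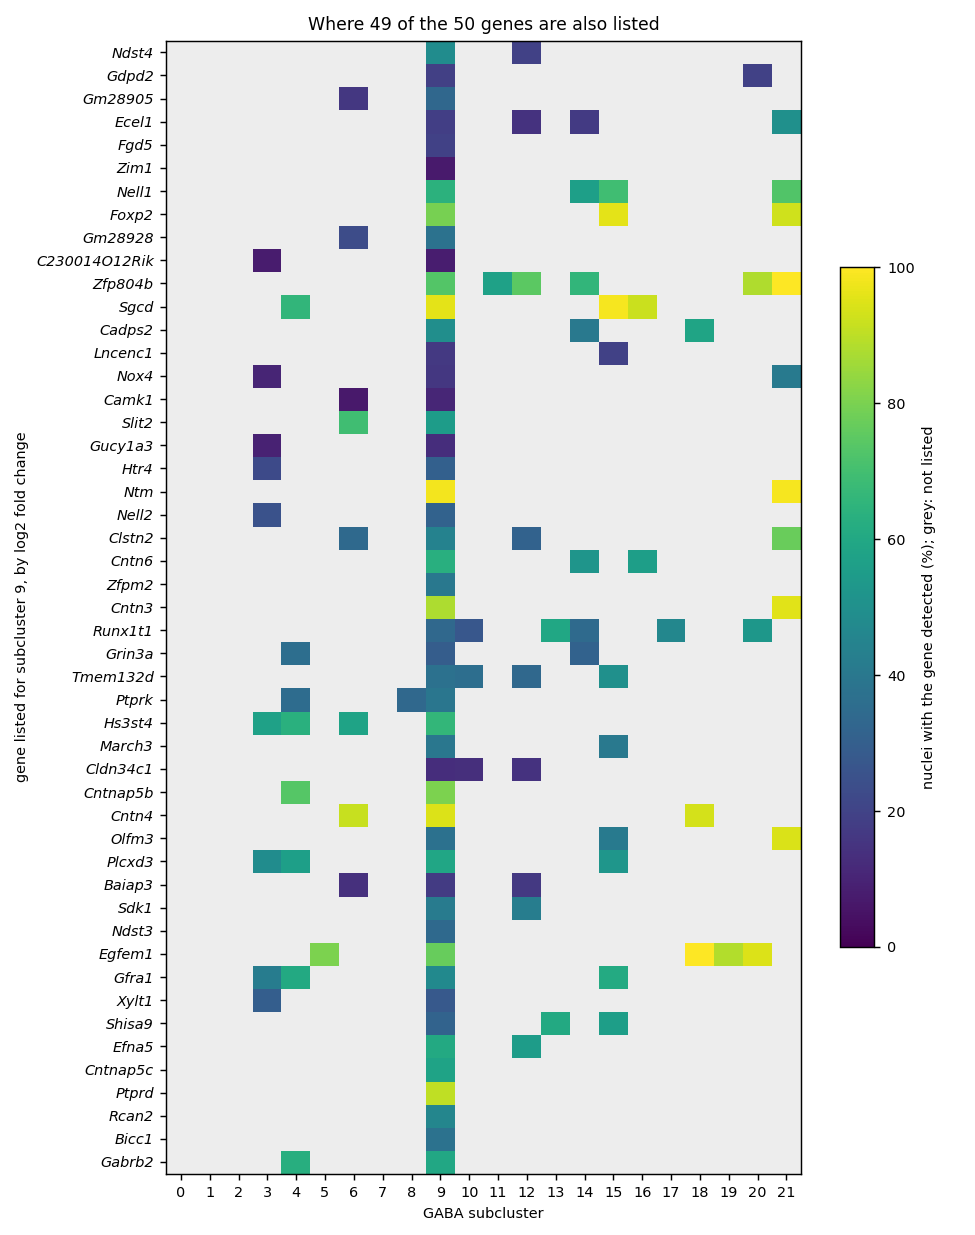
Percentage of nuclei with each of 49 of the 50 genes detected, by colour, in each GABA subcluster that lists the gene, with grey where it is not listed. Rows follow the log2 fold change in subcluster 9, and the 8 rows with 1 coloured cell are the genes listed for it alone.

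The overlap with subcluster 15, which also has Foxp2, held Foxp2, Nell1, Sgcd, Olfm3, Lncenc1, March3, Gfra1, Shisa9, Tmem132d and Plcxd3. Of these 10, 9 were detected in more nuclei of subcluster 15 than of subcluster 9. Shisa9 was at 56% in subcluster 15 and 31.8% in subcluster 9, and Tmem132d at 50.1% and 37.4%, in the authors' deposited table. Plcxd3 was the exception, at 52.5% and 59% in that order in the authors' deposited table. In the other Foxp2 subcluster, subcluster 21, all 9 shared genes were detected in more nuclei than in subcluster 9, among them Olfm3 at 94.3% and Ecel1 at 50% in the authors' deposited table. Shared genes were picked for being high in both subclusters, and subclusters 15 and 21 are smaller (2.15% and 0.351% of GABA nuclei against 4.96%). How far this sets the direction was not tested, and nothing is read from the 2 counts. The most frequent members of subcluster 9, Ntm and Sgcd, were split between these lists, with Sgcd in that of subcluster 15 and Ntm in that of subcluster 21.

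Subclusters 9 and 3 both have broad cluster 3 as their best match, and they shared 9 genes, which is 18% of each list beside 7.09% of all genes of the table listed for subcluster 3. Subcluster 3 held 8.74% of the GABA nuclei (8.46% to 8.98% from rounding). The 9 genes were Hs3st4, Plcxd3, Gfra1, Nell2, Htr4, Xylt1, Nox4, Gucy1a3 and C230014O12Rik. Detection was higher in subcluster 9 for 8 of them, and the widest gap was that of Plcxd3, at 59% in subcluster 9 and 48.5% in subcluster 3 in the authors' deposited table. Hs3st4 was at 66.2% and 57.2%, Htr4 at 30.5% and 22.4%, and Nell2 at 31.5% and 25.3%, in that order, in the authors' deposited table. Xylt1 went the other way, at 28% and 30% in the authors' deposited table. The table sets each subcluster against all other GABA nuclei and not against the other, and without numbers of nuclei these gaps have no error. All 9 genes were picked for being high in both subclusters, and subcluster 9 is the smaller (4.96% of GABA nuclei). How far this sets the direction was not tested, and nothing is read from the count of 8.

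**Figure D5:**
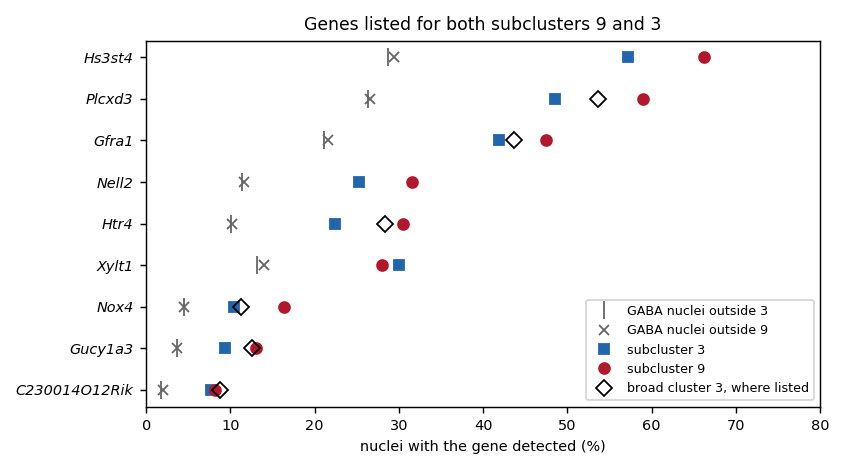
Percentage of nuclei with the gene detected for the 9 genes listed for both subclusters, in subcluster 9 (red), subcluster 3 (blue) and the GABA nuclei outside each (grey marks). Diamonds show broad cluster 3 for the genes that it lists, which leaves out Hs3st4, Nell2 and Xylt1. Subcluster 9 lies above subcluster 3 for 8 genes and below it for Xylt1. The genes were picked for being high in both, so nothing is read from that count.

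The other 41 genes of each list were not shared. Foxp2, Ndst4, Nell1, Sgcd and all 10 adhesion genes of subcluster 9 are absent from the list of subcluster 3. As 7.09% of all genes of the table are listed for subcluster 3, 0 of 10 adhesion genes is near that share. Nothing is read from these absences. The list of subcluster 3 holds Stk31 (31.2% against 6.6%, log2 fold change 2.90), Il1rapl2, a synaptic adhesion gene (79.9% against 41.4%, 2.34), and the contactin gene Cntn5 (85.7% against 45.4%, 1.57) in the authors' deposited table. Its neuropeptide genes were Nts, for neurotensin (8.9% against 1.8%, 2.39), and Penk, for the enkephalin precursor (9.5% against 3.8%, 1.36), per the authors' deposited table. Of 29 neuropeptide genes in a list, 13 were in the GABA table and 0 were listed for subcluster 9. Of other lists, 0 of 46 neuropeptide and hormone receptor genes, 0 of 38 potassium channel genes and 0 of 31 solute carrier genes were listed for it, with 13, 15 and 7 of these in the table. With 7.09% of all genes of the table listed for subcluster 9, counts of 0 from groups of these sizes are near that share, and nothing is read from them.

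Broad cluster 3, a cluster of all nuclei and not of GABA nuclei alone, listed 22 of the 50 genes of subcluster 9, beside 6.00% of all genes of the broad table listed for it. It listed 24 genes of subcluster 3. Of its 50 genes, 6 were listed for both subclusters and 10 for neither. Detection was higher in subcluster 9 than in broad cluster 3 for 21 of the 22 genes. All 22 were picked for being high in subcluster 9, which favours that direction, so nothing is read from the count. Foxp2 was at 57.8% in broad cluster 3 and Ndst4 at 29.3% in the authors' deposited table, against 79.5% and 48.5% in subcluster 9. C230014O12Rik was the exception, at 8.7% and 8.2% in that order in the authors' deposited table.

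If broad cluster 3 were subclusters 3 and 9 together, its detection would be their weighted mean. For the 6 genes with a value in all 3, that mean was off by up to 3.07 percentage points (Htr4, 28.4% found and 25.3% computed), beyond the tolerance of 2 points, and C230014O12Rik lay outside the values of both. Detection in subcluster 3 of the genes it does not list was therefore not computed. The tables cover overlapping nuclei, so these matches are not separate evidence. In the table of nuclei labelled Sst, subclusters 0 and 3 each shared 9 genes with GABA subcluster 9, which is 18% of each list. That is near the 14.2% of all genes of the Sst table listed for Sst subcluster 0, which has as many rows as Sst subcluster 3. Nothing is read from these 2 overlaps. Foxp2 was listed for none of the 8 subclusters of the Sst table. Subcluster 0 of that table shared 30 genes with GABA subcluster 3, where 14.2% of all genes of the Sst table are listed for it.

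Markers of other cell types were looked up in the list of subcluster 9, which holds 7.09% of all genes of the table. The marker lists are short, so counts of 0 or 1 are near that share. Of 15 genes of striatal medium spiny neurons, 12 were in the GABA table and 1, Foxp2 itself, was listed. Of 9 genes of eccentric medium spiny and intercalated neurons, 6 were in the table and again Foxp2 alone was listed. Of 13 cortical interneuron genes, 11 were in the table, and of 10 medial septum and diagonal band genes, 1 was, and 0 of either list were listed for subcluster 9. Of 10 astrocyte genes, 3 were in the table and 0 were listed. The lists for oligodendrocytes and their precursors, microglia, endothelial and mural cells, ependymal cells and excitatory neurons had 0 genes in the table. For these lists a count of 0 was fixed beforehand, and it says nothing about subcluster 9. Of 14 genes of lateral septum GABAergic neurons, 6 were in the table and 0 were listed. Of 10 genes named in other work as FOXP2 targets or partners, 3 were in the table and 0 were listed. General GABA markers cannot stand out in a comparison among GABA nuclei, and whether subcluster 9 is septal was not tested.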

How the data were processed

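Single-nucleus RNA sequencing gave 3 libraries from pooled tissue. Per the submitters' processing notes, Seurat 4 and mm10 were used. The aligner, marker test, clustering settings, doublet handling and filters on nuclei are not stated in the sources used here, nor is it stated whether reads were counted by strand, so members that overlap another gene, such as Nell1, Nell2 and Camk1, may hold its reads. The authors deposited 3 tables of cluster markers. Per the file headers they hold a log2 fold change, detection inside and outside a cluster as a fraction of nuclei (written here as a percentage), and p-values, raw and adjusted. The deposited p-values come from nuclei, not animals. They are mentioned only for the ties at 0 and for an adjusted limit of 0.001, and are not used as tests. Their adjusted value was the raw value times 20044 in the GABA table.

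Members and gene lists were chosen with earlier results of these data known. By rule any of the 50 genes could be named, and 1 of them is counted but not reported here by name or plotted. In all, 31 lists of genes were counted, and no set test was made. Shares of nuclei came from least squares over the 258 genes listed for 2 or more GABA subclusters (residual 0.02 percentage points), with rounding bounds by linear programming, and were tested on simulated data. The GABA shares summed to 100.8%. Gene spans are from GENCODE M21 and promoters from RefSeq. Promoter words were searched after an exploratory look at their matches. The work used Python 3.11.15 with scipy 1.17.1, pandas 2.3.3, matplotlib 3.10.9 and numpy 2.4.6. Depth per library is unknown. Alternatives changed the genes in the equations, the sum of shares, ranking and minimum values.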

Additional observations from a re-analysis of the deposited data

How the results depend on the processing

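The share of subcluster 9 stayed between 4.93% and 4.96% when the equations used genes with differences of at least 10 points, left out genes of subcluster 3, were weighted, or forced shares to sum to 100%. All 50 genes had an adjusted p under 0.001, and the best broad match, cluster 3, was unchanged by the share of the union, as lists of equal length require. Sst subclusters 0 and 3 tied under both measures. A minimum log2 fold change of 2 left 13 of the 50 genes. Ranking by difference in detection kept 6 of the leading 15 genes, and ranking by ratio kept 10. Of the 9 genes shared with subcluster 3, 5 were detected in at least 25% of both, and 1 had a log2 fold change of at least 1.5 in both. Counting only genes listed for 1 GABA subcluster left 1 gene of the transcription factor list (Zfpm2), 0 receptor genes, 2 adhesion genes and 1 matrix gene. The minimum values and the limit to 1 subcluster keep fewer genes by their construction. For the rankings the cause was not tested. No paired analysis was possible because the tables pool all libraries, and leaving out a library was not possible for the same reason. Numbers of nuclei are unknown, which limits every detection value.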
